A study of Mus musculus with 6 samples.

Results

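The sonic hedgehog genes described here were 9 of the 32286 genes in the count tables, namely Shh, Ptch1, Boc, Cdon, Hhip, Smo, Gli1, Gli2 and Gli3. They were chosen by name as the ligand, its receptors and inhibitor, the signal transducer and the transcription factors of the pathway, and all 9 were measured. Whole cerebella were taken from 3 Pcp2-ATXN1[82Q] mice (SCA1) and 3 wild-type littermates (WT), all on a C57BL/6 background and 12 weeks old, and each mouse gave 1 library of single nuclei. In SCA1 mice the Pcp2 promoter drives human ATXN1 with an expanded CAG repeat in Purkinje cells, so that other cells carry the gene but are not meant to express it. UMIs (unique molecular identifiers, here the count of captured RNA molecules) were summed over the nuclei of each mouse that the authors gave the same SingleR label. A level is given as CPM, the UMIs of a gene per 1000000 UMIs of that label and mouse, and levels are compared between labels and mice but not between genes.

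Hedgehog signaling works by release of inhibition. Without ligand, Ptch1 keeps Smo off and Gli3, together with Gli2, is processed to a repressor. When Shh binds Ptch1, aided by the co-receptors Boc and Cdon, Smo becomes active at the primary cilium and Gli2 and Gli3 are turned to activators, which induce Gli1, Ptch1 and Hhip. In the cerebellum Shh comes from Purkinje cells. It drives the division of granule neuron precursors during development and helps to maintain the character of Bergmann glia in the adult.

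Of 45473 nuclei, 292 had the Purkinje cell label (PC), 1243 the Bergmann glia label (BG), 1014 the velate astrocyte label (VA), 1384 the oligodendrocyte label (OL) and 37532 the granule neuron label (GN). With 8 further labels these made 13 labels that had at least 10 nuclei in every mouse, and the 11 smaller labels are not compared. Of the 458 nuclei labelled Pvalb-Rab3b 0, and of the 263 labelled Pvalb-Chrm2 38, lay in a cluster of the authors in which their label was the main one. The fixed markers, given here as CPM of the UMIs of all 6 mice pooled, which weights the deeper libraries, followed the labels. The Purkinje genes Car8 and Itpr1 reached 2463 and 10030 CPM in PC, the Bergmann gene Gdf10 140 CPM in BG against 15.3 CPM in VA, Aqp4 1107 CPM in VA against 245 CPM in BG, and Mog 689 CPM in OL. The label Endothelial_Tip.Dcn.Nnat did not follow its name. Its nuclei held the fibroblast genes Dcn (413 CPM), Col1a2 (346 CPM) and Col1a1 (184 CPM), and of the 3 endothelial markers Flt1 stood at 101 CPM while Cldn5 and Pecam1 were at 1.32 and 2.20 CPM. They also had the highest levels of Foxp2 (1057 CPM) and Pdgfra (110 CPM), from the Purkinje and oligodendrocyte precursor lists, and are called Dcn.Nnat nuclei here. UMIs of the Purkinje gene Pcp2 were found outside PC too, with a mean over mice of 229 CPM in GN against 612 CPM in PC. Total counts ranged from 18916647 to 98366627 UMIs per mouse. WT mouse 2 was the shallowest library, with a median of 2246.5 UMIs per nucleus against 4496 to 7253 in the others, and 254 of the 45219 different cell barcodes occurred in more than 1 library.

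**Figure D1:**
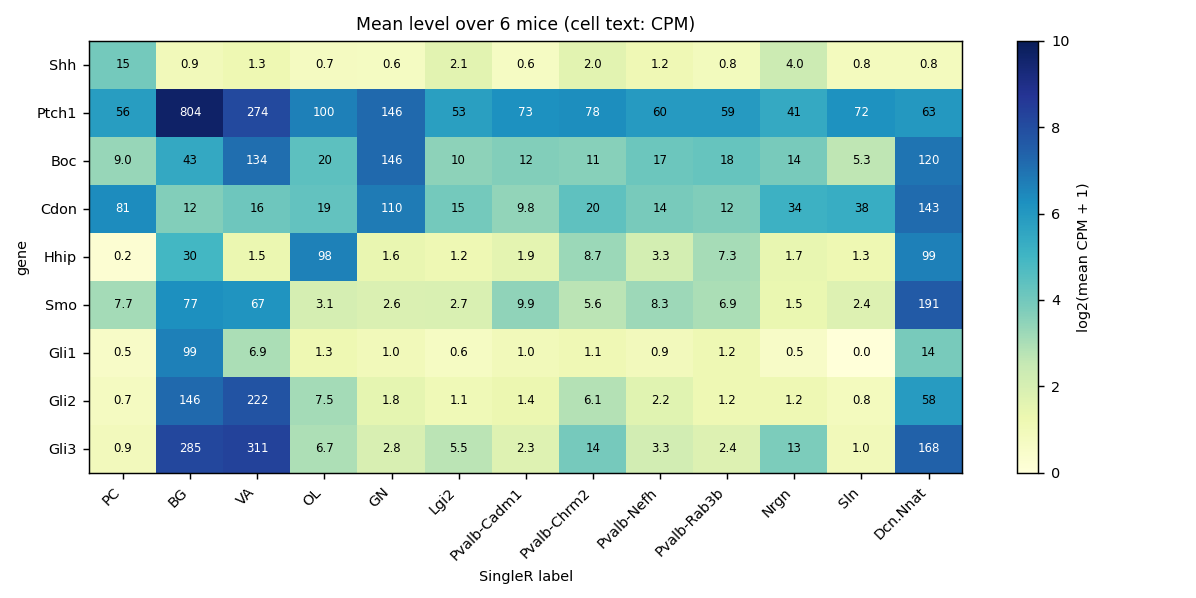
Mean level over 6 mice of the 9 hedgehog genes (rows) in the 13 labels (columns). Numbers are CPM and color is log2(mean CPM + 1); Shh was highest in PC (15 CPM), Ptch1 and Gli1 in BG (804 and 99 CPM), Gli2 and Gli3 in VA (222 and 311 CPM), and Smo in Dcn.Nnat nuclei (191 CPM).

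Shh, the secreted ligand (chr5:28456815-28467256, minus strand, mm10), was highest in PC in both genotypes. In PC its level was 25.7, 17.6 and 13.2 CPM in SCA1 mice 1 to 3 and 17.6, 6.03 and 8.08 CPM in WT mice 1 to 3, from 65, 19 and 23 UMIs and from 57, 5 and 9 UMIs. Each of the 6 values exceeded the level in GN of the same mouse, which ranged from 0.153 to 1.39 CPM, and the mean in PC was 22.6 times that in GN. Pcp2 had a PC to GN ratio of 2.67, and the part of free RNA in either ratio was not tested. The next label was the Slc17a6-positive neuron label Nrgn, with a mean of 4.02 ± 2.14 CPM (SD, n = 6 mice) against 14.7 ± 7.20 CPM in PC, and PC was above Nrgn in 5 of 6 mice. The exception was WT mouse 2, where the PC value rests on 5 UMIs and the Nrgn value on 2 UMIs. In the same mouse the inhibitory neuron label Lgi2, also from 2 UMIs, stood at 7.10 CPM, above PC. From Nrgn downward, neighbouring labels overlapped in their ranges over mice, and none of the other 11 labels had a mean above 2.10 CPM. A Shh UMI was found in 34.6% of PC nuclei and in 0.427% of GN nuclei (means of the 6 mice). The median depths were 36466.5 and 5923 UMIs per nucleus. After thinning each nucleus to 3000 UMIs the shares were 4.33% and 0.220%.

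**Figure D2:**
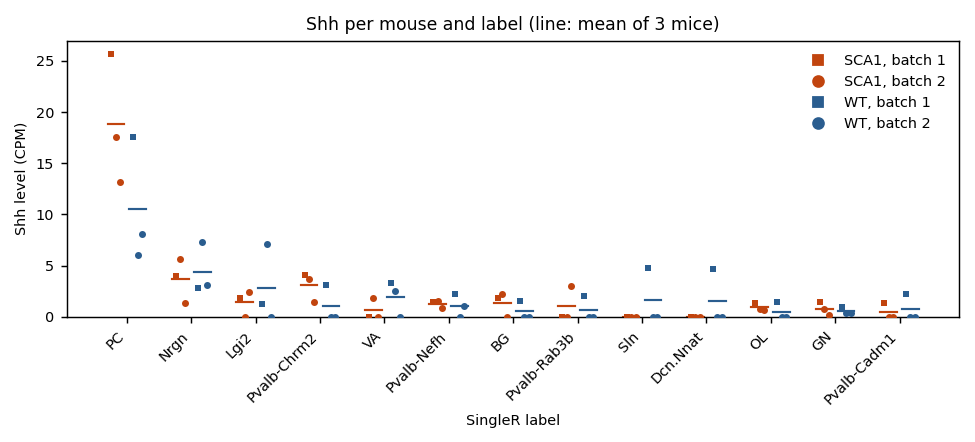
Shh level (CPM, y axis) in each label (x axis), 1 point per mouse, squares for batch 1 and circles for batch 2, with lines at the mean of 3 mice. The 6 PC values lie between 6.03 and 25.7 CPM, and the highest value in any other label is 7.30 CPM, in Nrgn of WT mouse 2.

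Ptch1, the receptor that Shh binds (chr13:63508328-63573598, minus strand), was highest in BG. There it stood at 632, 577 and 858 CPM in the SCA1 mice and at 804, 1018 and 937 CPM in the WT mice. The values in VA ran from 224 to 350 CPM, those in GN from 127 to 159 CPM and those in OL from 75.1 to 110 CPM. The ranges of BG, VA, GN and OL did not overlap, and the mean in BG was 2.94 times that in VA and 5.51 times that in GN. Below OL the other labels, PC among them (56.0 ± 5.64 CPM), lay between means of 41.5 and 77.8 CPM, and neighbours in that order overlapped. Ptch1 UMIs were found in neuronal as well as glial labels, PC included, and the part of free RNA in these levels was not tested. Its RefSeq promoter is shown because Ptch1 is itself a target of the Gli factors. Of the 9 genes, 6 had a promoter entry, and these are the 250 bases before the start in the Ptch1 entry (GRCm38.p6, chr13:63565736-63565985, minus strand), which lie inside the gene as GENCODE draws it and outside its exons. Capitals mark CG dinucleotides.
Ptch1 promoter: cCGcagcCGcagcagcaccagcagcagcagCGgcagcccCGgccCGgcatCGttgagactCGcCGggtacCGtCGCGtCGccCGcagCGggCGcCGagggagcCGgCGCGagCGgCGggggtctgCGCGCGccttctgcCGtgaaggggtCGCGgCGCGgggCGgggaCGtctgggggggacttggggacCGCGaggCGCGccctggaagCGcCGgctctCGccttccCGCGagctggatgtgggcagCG
It holds 41 CG dinucleotides and is 78.4% G and C. Neither the Gli consensus GACCACCCA nor the looser GACCNCCCA was found on either strand in any of the 6 promoter windows of 300 bases, and 0.253% and 0.977% of all 32851 windows hold them, the looser count including every match to the stricter motif.

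Boc and Cdon, related cell-surface co-receptors that help to present Shh to Ptch1, were high in granule neurons and lower in BG. Boc (chr16:44485049-44558897, minus strand) stood at 132, 119 and 158 CPM in GN of SCA1 mice and at 127, 169 and 171 CPM in WT mice. In VA it ranged from 109 to 179 CPM and in Dcn.Nnat nuclei from 77.1 to 159 CPM, so that these 3 labels overlapped, while BG (26.3 to 54.4 CPM) lay below them all. Cdon (chr9:35421128-35507652, plus strand) stood at 115, 111.3 and 136 CPM in GN of SCA1 mice and at 96.1, 90.2 and 110.7 CPM in WT mice. Its mean was higher in Dcn.Nnat nuclei (143 ± 68.5 CPM), where the range of 58.4 to 230 CPM enclosed that of GN. Its PC level, 68.5 to 103 CPM, was below the GN level of the same mouse in 6 of 6 mice although the ranges overlapped. The 2 co-receptors differed in PC and VA. In PC the mean of Boc was 9.00 ± 4.19 CPM, which was 16.2 times below that in GN, whereas the Cdon mean was 1.35 times below. In VA the mean of Boc was 134 CPM, near its GN level, whereas Cdon was at 15.8 ± 2.40 CPM. BG had 11.8 ± 7.06 CPM of Cdon.

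Hhip, which binds hedgehog ligands at the cell surface and so limits signaling (chr8:79965851-80058006, minus strand), had its highest means in Dcn.Nnat nuclei (99.1 ± 65.0 CPM) and in OL (98.0 ± 38.5 CPM), and these did not differ beyond their spread. In OL it stood at 71.5, 57.7 and 100 CPM in SCA1 and at 77.4, 163 and 118 CPM in WT. BG followed with 14.6 to 64.0 CPM and was below OL in 6 of 6 mice. VA had 1.50 ± 2.05 CPM, so that Hhip, like Gli1, separated the 2 astrocyte labels. Among OL nuclei, 449 had a Hhip UMI, and 94.7% of these also had a Mog UMI and 3.56% a Pdgfra UMI; among the 935 OL nuclei without Hhip the shares were 88.2% and 8.13%. Mog marks mature oligodendrocytes and Pdgfra their precursors, and the median depths were 6853 and 6267 UMIs.

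Smo, the membrane protein that carries the signal once Ptch1 is bound (chr6:29735503-29761365, plus strand), had its highest levels in Dcn.Nnat nuclei, BG and VA. Dcn.Nnat nuclei came first, with 98.2 to 266 CPM. BG held 60.7, 68.7 and 102 CPM in SCA1 and 48.7, 96.5 and 86.5 CPM in WT, and VA held 54.3 to 82.7 CPM. The BG and VA ranges overlapped, with BG above VA in 4 of 6 mice. All neuronal labels and OL had means of at most 9.87 CPM. In GN, which held the third highest Ptch1 level after BG and VA, Smo stood at 2.59 ± 1.48 CPM.

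The Gli factors split into 2 patterns. Gli1, an activator that is itself a target of the pathway (chr10:127329882-127341974, minus strand), stood at 93.9, 74.5 and 62.1 CPM in BG of SCA1 mice and at 150, 134 and 80.5 CPM in BG of WT mice. Dcn.Nnat nuclei came next with 3.43 to 20.5 CPM and VA with 2.75 to 10.2 CPM. The BG mean was 14.4 times the VA mean, and the BG range was apart from that of every other label. Gli2 (chr1:118834132-119053619, minus strand) and Gli3 (chr13:15463235-15730026, plus strand), which relay the signal and, as repressors, hold it off, were instead shared by both astrocyte labels. Gli2 stood at 113, 92.8 and 185 CPM in BG of SCA1 mice and at 111, 180 and 195 CPM in BG of WT mice, and at 180, 117 and 300 CPM and at 184, 219 and 335 CPM in VA. VA was above BG in 6 of 6 mice with overlapping ranges. Gli3 had means of 311 ± 119 CPM in VA and 285 ± 92.7 CPM in BG, with VA above BG in 5 of 6 mice, and Dcn.Nnat nuclei had 168 ± 48.0 CPM. In PC, Gli1, Gli2 and Gli3 had 9, 8 and 9 UMIs in all 6 mice together, at means of at most 0.873 CPM. Gli2 and Gli3 varied between mice in the same way in both astrocyte labels, with mouse 3 of each genotype the highest for Gli3 in BG and in VA. Gli1, Gli3 and Shh overlap other genes of the tables on the opposite strand (Arhgap9 and Gm47200 for Gli1, Gm6556 for Gli3 and 9530036O11Rik for Shh), and whether counting used the strand is not given in the sources used here.

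**Figure D3:**
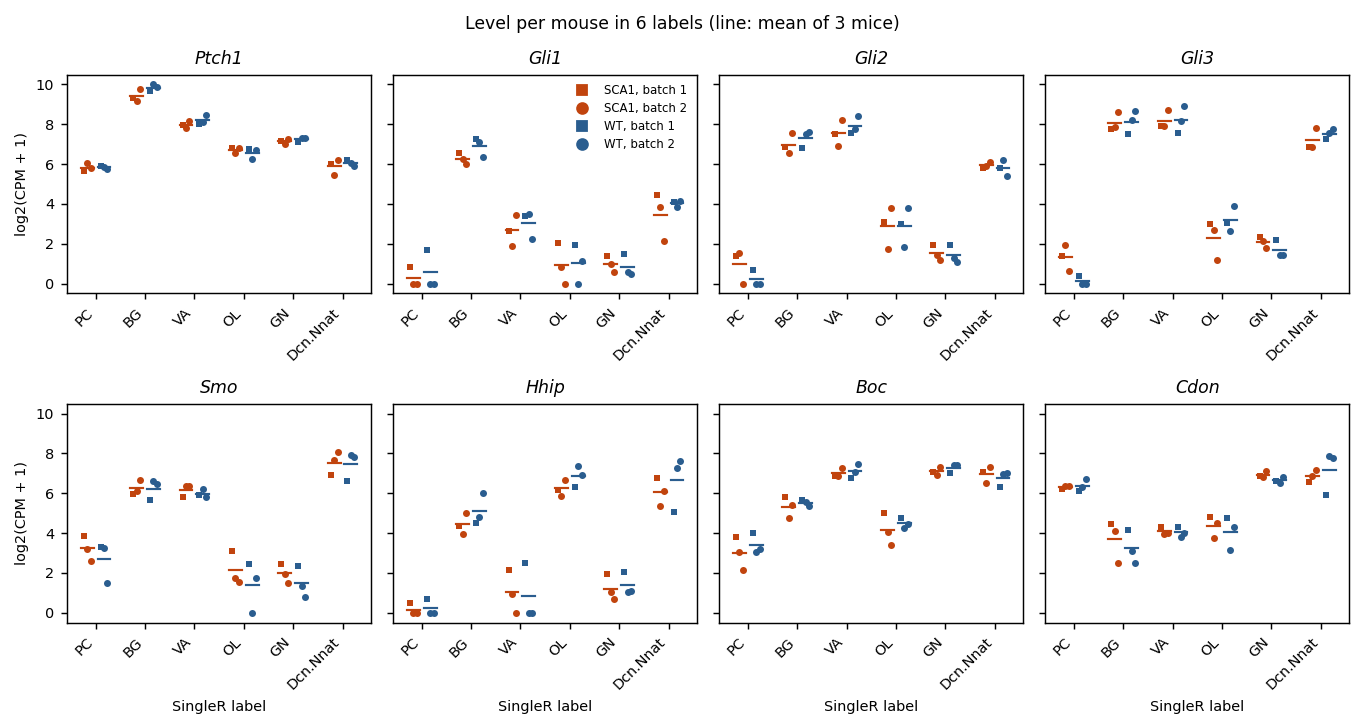
Level of 8 of the genes as log2(CPM + 1) (y axis) in 6 labels (x axis), 1 point per mouse, squares for batch 1 and circles for batch 2, lines at the mean of 3 mice. Gli1 and Ptch1 peak in BG, Gli2 and Gli3 are shared by BG and VA, Smo and Hhip reach Dcn.Nnat nuclei and Boc and Cdon are high in GN.

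The genes most alike in pattern were sought by Pearson's r of log2(CPM + 1) over 78 points (13 labels in 6 mice) among 18628 genes. Points share libraries, so r is a description. For Shh they were Atp6ap1l (r = 0.82), Camk2a (0.77) and Bcl11a (0.77), and for Ptch1 they were Lrig1 (0.88), Casp1 (0.87) and Elmo2 (0.87). Gli1 was closest to Stard8 (0.89), Hk2 (0.87) and C030005K06Rik (0.86), Gli2 to Plce1 (0.93), Pbxip1 (0.93) and Fam20a (0.93), and Gli3 to Colec12 (0.89), Plce1 (0.89) and Gli2 (0.89). Smo was closest to Lacc1 (0.84), Trim12a (0.84) and Six5 (0.84), Hhip to Rassf2 (0.81), Lpar1 (0.79) and Tgfbi (0.78), Boc to Nxn (0.85), Maml2 (0.82) and Cnksr3 (0.81), and Cdon to Ebf1 (0.80), Chst15 (0.74) and Nhsl2 (0.72). Gli2 among the 3 nearest to Gli3 was the only case in which another of the 9 genes was that close, and r of Shh with Ptch1 was -0.21.

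The question of the SCA1 comparison was whether hedgehog signaling between PCs and BG differs in mice whose PCs express mutant ATXN1. In BG the receptor Ptch1 and the target Gli1 had lower mean levels in SCA1 than in WT, but neither passed the test over all genes. Ptch1 averaged 689 ± 149 CPM in SCA1 and 919 ± 108 CPM in WT (SD, n = 3 mice each), and SCA1 mouse 3 lay above WT mouse 1. Gli1 averaged 76.8 ± 16.0 CPM and 122 ± 36.5 CPM, and SCA1 mouse 1 lay above WT mouse 3. In the edgeR quasi-likelihood fit with genotype and batch (mouse 1 of each genotype in batch 1, the other 4 mice in batch 2, read from library numbers in the labels), the log2 difference of SCA1 from WT was -0.46 for Ptch1 (SE 0.27, unadjusted p = 0.121) and -0.71 for Gli1 (SE 0.24, unadjusted p = 0.0122), and the adjusted p was 1.00 for each. A call needs an adjusted p of at most 0.05, and by it 0 of the 8 hedgehog genes tested were called in BG, where 0 of 11752 genes (0%) were called at all. An unadjusted p below 0.05 was reached by 213 genes in BG (1.81%), and 2 calls were made by DESeq2. Of the 8, 0 had every SCA1 mouse below every WT mouse, as 1.96% of all genes tested had.

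**Figure D4:**
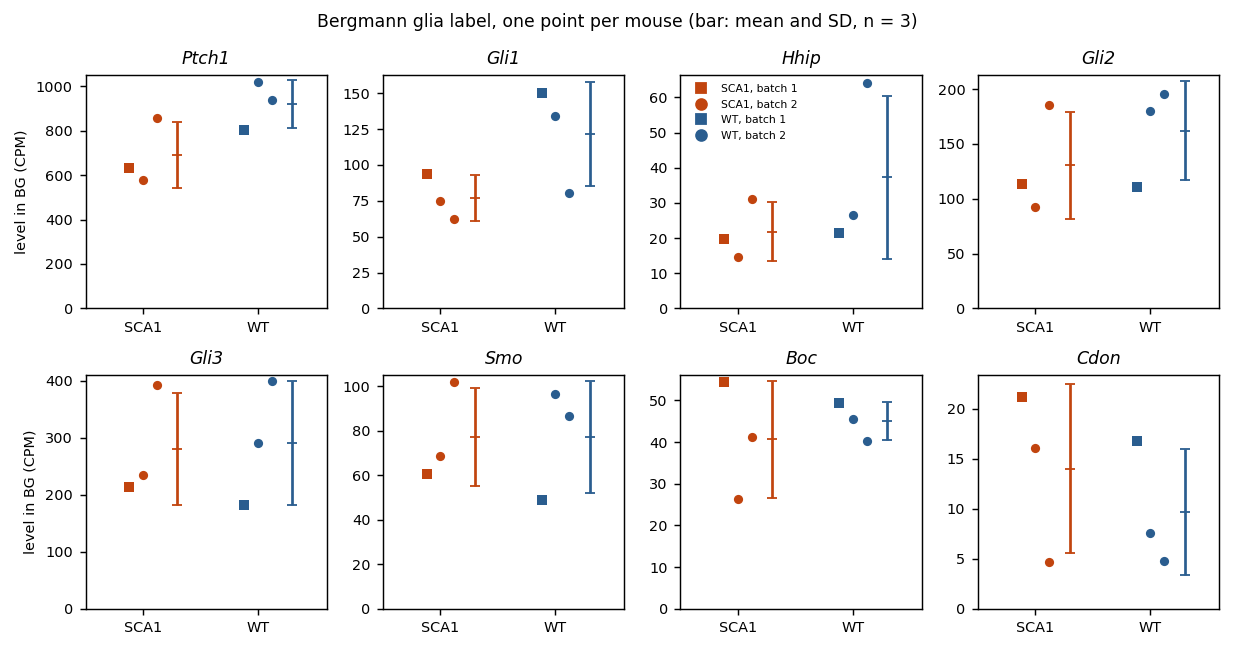
Level in BG (CPM, y axis from 0) by genotype (x axis), 1 point per mouse, squares for batch 1 and circles for batch 2, bars for mean and SD of 3 mice. The genotypes overlap for all 8 genes, and Ptch1 (577 to 858 CPM in SCA1, 804 to 1018 CPM in WT) and Gli1 (62.1 to 93.9 CPM in SCA1, 80.5 to 150 CPM in WT) sit lower in SCA1 on average.

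The direction of Ptch1 and Gli1 was the same in both batches. On the log2(CPM + 1) scale Ptch1 differed by -0.35 in batch 1 and -0.47 in batch 2, and Gli1 by -0.67 and -0.60, where batch 1 holds 1 mouse of each genotype. For both genes the overlap of genotypes was between batches. Within each batch every SCA1 mouse lay below every WT mouse. How many of all genes in BG did so was not computed. Without WT mouse 2, the shallow library, the fitted log2 differences were -0.45 for Ptch1 and -0.53 for Gli1, with unadjusted p of 0.230 and 0.0740 by edgeR. Without SCA1 mouse 2 the Ptch1 difference was -0.26. Of the marker lists of other cell types, only Mural and Fibroblast stood apart between genotypes in BG. How often a list stands apart without an effect of genotype was not tested. The 3 Mural markers summed were 30.4 to 39.5 CPM in SCA1 and 43.4 to 51.1 CPM in WT, chiefly Pdgfrb, and the 3 Fibroblast markers summed were 44.6 to 65.8 CPM in SCA1 and 28.4 to 40.0 CPM in WT, chiefly Col1a2. No marker of either list was at 0 in BG. The Bergmann markers overlapped between genotypes (4020 to 4836.5 CPM and 4413 to 5258 CPM), as did the Purkinje markers (222 to 960 CPM and 423 to 1787 CPM); their part in the result was not tested.

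The study's own test took single nuclei rather than mice as the units (limma-trend with genotype and batch on scran-normalized values). By that test the paper reports Ptch1 and Gli1 as lower in SCA1 BG. Apart from that test, the paper reports less Gli1 RNA in SCA1 by RT-qPCR of whole cerebellar extracts, with mice as the units. Those RT-qPCR values are not part of the data used here. The study also required label and cluster to match, which was not required here. With nuclei as the units here, 2 of 9 hedgehog genes were called in BG, both lower, beside 0.644% of all genes called lower. The differences in mean log2 value per nucleus were -0.39 for Ptch1 (SE 0.065, adjusted p = 1.2e-06) and -0.23 for Gli1 (SE 0.044, adjusted p = 4.02e-05). Nuclei of 1 mouse are not independent, so these p-values measure the spread between nuclei and not between mice. The share of BG nuclei with a Ptch1 UMI, at 3000 UMIs per nucleus, was 71.3%, 69.8% and 83.6% in SCA1 and 79.9%, 88.8% and 91.6% in WT. SCA1 mouse 3 lay above WT mouse 1, and the two-sided exact permutation p was 0.2, where 3 against 3 mice allow no p below 0.1. The permutation tests of shares took no account of batch. Within each batch every SCA1 share of Ptch1 lay below every WT share. At 1000 UMIs, which kept all 1243 BG nuclei, the mean shares were 43.6% and 56.6%, and the 3 SCA1 mice (38.3% to 48.0%) were all below the 3 WT mice (48.8% to 63.1%, exact permutation p = 0.1). For Gli1 the mean shares were 19.3% in SCA1 and 27.9% in WT, also with overlap (exact permutation p = 0.2). At 1000 UMIs they were 7.95% and 13.3%, without overlap (exact permutation p = 0.1). For Ptch1 and Gli1 alike, the shares at 1000 UMIs rest on 1 random draw. At that depth no mean over draws was computed, nor how many of all genes stood apart. At 3000 UMIs the mean shares over all possible thinning draws were 75.5% and 85.8% for Ptch1 and 19.3% and 29.1% for Gli1. The exact permutation p was 0.2 for each. In these mean shares every SCA1 mouse lay below every WT mouse of its batch, for Ptch1 and Gli1 alike. How many of all genes did so was not computed. Thinning to 3000 UMIs left out 72 of the 1243 BG nuclei, 55 of them in WT mouse 2. Unthinned, the mean share was 92.0% and 92.8% for Ptch1 and 42.8% and 50.4% for Gli1.

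**Figure D5:**
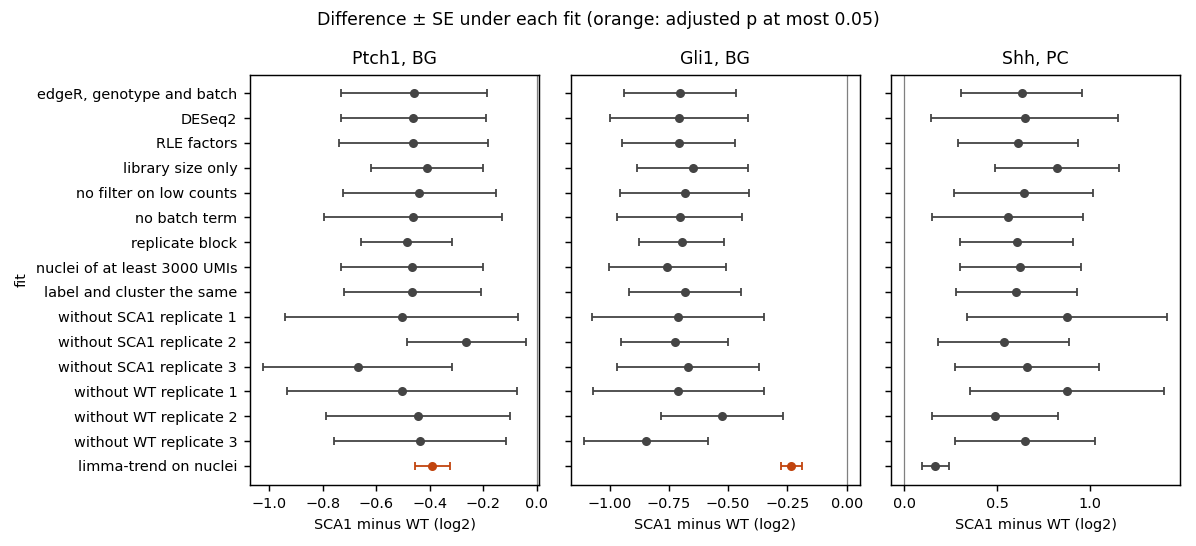
Log2 difference of SCA1 from WT (x axis) with its SE for Ptch1 and Gli1 in BG and for Shh in PC under each fit (y axis), orange where the adjusted p was at most 0.05. All values for the BG genes are below 0 and all for Shh above 0; the single-nucleus fit, whose values are per nucleus and on a different scale, is the only one with calls, for both BG genes.

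The other hedgehog genes in BG gave no call. Gli2 differed by -0.32 (SE 0.30) and by -0.010 to -0.63 when each mouse was left out (-0.010 without SCA1 mouse 2), Gli3 by -0.07 (SE 0.29), Smo by 0.00 (SE 0.25) and Hhip by -0.74 (SE 0.41). The Hhip value depended on WT mouse 3, whose 64.0 CPM was the highest of the 6, and it was -0.16 without that mouse. Over the 8 genes the differences ran from -0.74 to 0.47 and the median was -0.25, beside -0.00 over all genes tested in BG, and 6 were lower and 2 higher.

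The ligand had a higher mean in SCA1 PC, without passing the test. Shh averaged 18.8 ± 6.35 CPM in SCA1 and 10.6 ± 6.17 CPM in WT. WT mouse 1, level with SCA1 mouse 2, lay above SCA1 mouse 3, so that the groups overlapped. That overlap was between batches, and within each batch every SCA1 mouse lay above every WT mouse. How many of all genes in PC did so was not computed. The log2 difference was 0.63 (SE 0.33, edgeR unadjusted p = 0.0788, adjusted p = 0.811), and it was 0.52 in batch 1 and 1.02 in batch 2 on the log2(CPM + 1) scale. Of the 5 hedgehog genes tested in PC, 0 were called, beside 0% of 10517 genes, while 720 genes (6.85%) reached an unadjusted p below 0.05 and 65 calls were made by DESeq2. The summed Purkinje markers, chiefly Itpr1, stood apart between genotypes in PC. They were 11758 to 15125 CPM in SCA1 and 15588 to 19290 CPM in WT. The paper reports lower Itpr1 in SCA1 PCs. The Ependymal list also stood apart, at very low counts, with 1.19 to 4.58 CPM in SCA1 and at most 0.926 CPM in WT. The part of either list in the Shh value was not tested. Scaling by library size alone moved the median log2 difference of all genes in PC from 0.02 to 0.20, and the Shh difference was then 0.82. In SCA1 PC nuclei with a human ATXN1 UMI (10, 10 and 11 nuclei in mice 1 to 3) Shh stood at 30.7, 14.9 and 11.5 CPM, from 13, 5 and 8 UMIs, and in those without (55, 42 and 18 nuclei) at 24.7, 18.8 and 14.2 CPM. The nuclei with a human ATXN1 UMI were higher in mouse 1 and lower in mice 2 and 3. With nuclei as the units, the paper reports no significant Shh change in PCs as a whole or in those with or without detected human ATXN1. Shh had only 14 UMIs in BG and was not tested there. Cdon in PC, with means of 78.3 CPM in SCA1 and 83.8 CPM in WT, differed by -0.27 (SE 0.22), by -0.081 with library size alone and, on the log2(CPM + 1) scale, by 0.085 in batch 1 and -0.16 in batch 2.

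In VA, 0 of 7 hedgehog genes were called beside 0% of 11193 genes, with 123 genes (1.1%) at an unadjusted p under 0.05 and 0 called by DESeq2; with the replicate number as a block 1 gene was called. Ptch1 differed by -0.23 (SE 0.26), Gli2 by -0.30 (SE 0.36), Gli3 by -0.06 (SE 0.33), Smo by 0.15 (SE 0.24) and Boc by -0.15 (SE 0.26). In OL, 0 of 6 were called beside 0.00866% of all genes, and Hhip differed by -0.59 (SE 0.29, edgeR unadjusted p = 0.0702), with values of 57.7 to 100 CPM in SCA1 and 77.4 to 163 CPM in WT that overlapped. The overlap of Hhip in OL was between batches, and every SCA1 mouse lay below every WT mouse of its batch. How many of all genes in OL did so was not computed. The Hhip difference in OL was -0.30 without SCA1 mouse 2. In GN, 0 of 9 were called beside 0.00547% of all genes, or 13 genes in place of 1 with the replicate block. Ptch1 differed there by -0.13 (SE 0.21) and Boc by -0.20 (SE 0.23), and Cdon by 0.25 (SE 0.22), with WT mouse 3 at 110.7 CPM just below SCA1 mouse 2 at 111.3 CPM, so that every SCA1 mouse was above every WT mouse, as were 1.88% of all genes. The Cdon difference was 0.082 without SCA1 mouse 3.

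Over the 13 labels, 63 of the 117 pairs of gene and label passed the filter on low counts, and 0 were called, beside 0.00146% of all gene and label pairs tested, with a lowest adjusted p of 0.811 (edgeR), that of Shh in PC. Gli1 in BG was the only pair of the 63 with an unadjusted p under 0.05, beside 1.99% of all pairs. The 46 differences not given singly here ran from -0.96 to 1.17. In Dcn.Nnat nuclei, where 7 genes were tested, the log2 differences ran from -0.62 to 0.27. Besides Cdon in GN, the genotypes did not overlap for 3 tested pairs, all lower in SCA1, namely Ptch1 and Boc in Nrgn (2.19% of all genes there) and Smo in the inhibitory neuron label Pvalb-Nefh (1.96%). Thus 3 of the 63 pairs were apart with SCA1 lower and 1 with SCA1 higher, beside 2.27% and 3.31% of all pairs. With the pairs that failed the filter included, 4 of the 117 were apart with SCA1 lower and 5 with SCA1 higher. No share over all genes was computed for this larger set. In Nrgn the summed Endothelial markers also stood apart, at 3.50 to 5.86 CPM in SCA1 and 6.21 to 8.41 CPM in WT. Their part in the Nrgn values was not tested.

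The differences between labels were tested in a joint model. Ptch1 was lower in SCA1 by 0.25 more on the log2 scale in BG than in VA (interaction -0.25, SE 0.16, edgeR unadjusted p = 0.145, adjusted p = 1.00) and by 0.31 more than in GN (interaction -0.31, SE 0.21, adjusted p = 1.00). For Gli1 the interactions were -0.21 (SE 0.49) against VA and -0.74 (SE 0.44) against GN, the latter -1.64 without WT mouse 1 and -0.44 without WT mouse 2, and for Shh in PC against GN 0.34 (SE 0.66). Cdon in PC against GN had the lowest p of these, at -0.55 (SE 0.21, edgeR unadjusted p = 0.0250, adjusted p = 1.00). None was called. In the models of BG against VA, BG against GN and PC against GN, 0 genes were called, an unadjusted p below 0.05 was reached by 299 (2.45%), 205 (1.2%) and 769 genes (4.6%), and DESeq2 made 0, 1 and 30 calls. Summed over all nuclei of a mouse, where fewer nuclei of a type and less RNA per nucleus cannot be told apart, Ptch1 differed by -0.19 (SE 0.18), Gli1 by -0.45 (SE 0.22) and Shh by 0.35 (SE 0.30). None of the 9 was called, beside 0.00495% of all genes; with the replicate block 30 genes in place of 1 were called, none of them a hedgehog gene.

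Of 26 other hedgehog genes fixed as a list, 0 were called in any of PC, BG, VA, OL or GN, where 0%, 0%, 0%, 0.00866% and 0.00547% of all genes were called. In BG 19 were tested, of which 8 were lower and 11 higher, with a median log2 difference of 0.01. The 2 tested genes of ligand release, Hhat, which acylates the ligand, and Disp1, which exports it, stood at -0.47 and -0.22 in BG and at 0.25 and 0.43 in PC, the label with the highest Shh level, and neither was called. The 14 tested genes of the cilium and intracellular relay had a median of 0.03 and the 2 tested targets, of Mycn, Ccnd1, Ccnd2 and Bcl2, stood at -0.37 (Bcl2) and 0.44 (Ccnd1). Gas1, a membrane-anchored co-receptor named here after its values were seen, differed by -0.64 (SE 0.29) in BG and by -0.30 without WT mouse 2. In PC 17 were tested, with 13 higher and 4 lower, where 47.5% of all genes were lower. The median was 0.11 beside 0.02 over all genes. The largest difference there was that of Evc2, a gene of the cilium and relay, also named after its values were seen. It was 1.09 (SE 0.40, edgeR unadjusted p = 0.0204, adjusted p = 0.559). An unadjusted p below 0.05 was reached by 6.85% of all genes in PC. Evc2 stood at 12.0 to 21.8 CPM in SCA1 and 5.55 to 8.98 CPM in WT. The share of all genes in PC whose genotypes stood apart in this way is not given here. A second list held 6 genes tied to hedgehog signaling in Bergmann glia (Kcnj10, Slc1a3, Aqp4, Gdf10, Gria1 and Gria4), which include channels, a glutamate transporter and glutamate receptors. In BG 5 of the 6 were lower, where 50.3% of all genes were, and Aqp4 was higher. Of the 5, Gria4 and Gria1 stood at -0.0045 and -0.077. The values were -0.59 (SE 0.23) for the potassium channel Kcnj10 and 0.30 (SE 0.24) for the water channel Aqp4, and 0 were called. In VA 4 of the 6 and in OL 5 of the 6 were higher. Kcnj10 was also lower in VA (-0.56, SE 0.25, edgeR adjusted p = 1.00), where every SCA1 mouse was below every WT mouse, as were 2.21% of all genes, and it was called in neither label.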

How the data were processed

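Single nuclei of whole cerebella from 6 mice were sequenced in 6 libraries. Per the labels and the study's methods, the authors aligned reads, introns included, to mm10 plus the locus of human ATXN1, and removed debris with DIEM. Its threshold was 1000 UMIs, raised to 3000 UMIs for the samples of the first sequencing run alone. The lowest count of any nucleus was 3890 and 3932 UMIs in SCA1 mouse 1 and WT mouse 1. In the other mice it was 1000 to 1739 UMIs. The submitters' processing notes name Cell Ranger 4.0.0, 5.0.1 and 6.0.1, R 4.1.0 and Seurat 4.0.4. Cell types in the study needed a SingleR annotation and a Seurat cluster that matched. Here the SingleR label alone was used. Of the 1243 BG nuclei 1126, and of the 292 PC nuclei 273, lay in a cluster in which their label was the main one. The deposited values are raw UMI counts per gene and nucleus, with the labels of the authors. Treatment of doublets is not given in the sources used here.

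Counts were summed per mouse and label (at least 10 nuclei in every mouse). SCA1 and WT were compared with the edgeR 4.0.16 quasi-likelihood test (TMM factors, filterByExpr with a minimum count of 10 and total of 15, terms for genotype and batch), and p-values were Benjamini-Hochberg adjusted over all genes tested, with a call at an adjusted p of at most 0.05. Interactions used 1 model with a term for mouse. Levels between labels are descriptions. Shares were thinned to 3000 UMIs per nucleus in 1 random draw, and the mean over all draws was added after seeing the data. Results were recomputed with DESeq2 1.42.0, with RLE factors or plain library sizes, without the low-count filter, without the batch term, and with a replicate block, in nuclei of at least 3000 UMIs, in nuclei whose label and cluster were the same, with each mouse left out, at 1000 UMIs per nucleus and by limma-trend on nuclei (limma 3.58.1, scran 1.30.0). Scripts were tested on simulated data (R 4.3.3, python 3.11.15).

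The genes and lists were chosen with earlier results of these data known. An item of the lists is not reported here. Named were the 9 genes, genes of the fixed lists by count, and the 3 genes most like each. Folds of single genes are given in PC, BG, VA, OL or GN, where the label was among the 3 highest of the gene. The mean there had to be at least 10 CPM. This rule was set after levels were seen, and Kcnj10, Aqp4, Gas1 and Evc2 were named after their values were seen. Replicate numbers were taken to pair mice where same-numbered mice deviated together in every pair (r over 0.1), which held in VA (0.72, 0.14 and 0.62), GN (0.87, 0.26 and 0.78) and all nuclei (0.83, 0.31 and 0.76), and not in PC, BG or OL, although SCA1 mouse 2 with WT mouse 1 in VA (0.18) and SCA1 mouse 3 with WT mouse 2 in GN (0.39) exceeded the same-numbered pair 2. Pair 1 is also batch 1, so its r cannot tell pairing from batch. The log2 differences given for VA, GN and all nuclei are from the fit with genotype and batch, without the replicate block. Mice are the replicates. Coordinates are mm10 with GENCODE gene models, and promoter sequence is from RefSeq.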

Additional observations from a re-analysis of the deposited data

Results flagged for a closer look

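Gli3 stood apart between genotypes in opposite directions in different labels, with every SCA1 mouse on one side of every WT mouse in each, at very low counts. The SCA1 mean minus the WT mean was 1.54 CPM in PC, from 9 UMIs in all 6 mice, and -2.32 CPM in the inhibitory neuron label Pvalb-Cadm1, from 6 UMIs. Both pairs failed the filter on low counts, so neither difference nor the contrast between labels was tested. Other pairs that failed the filter also stood apart, with SCA1 higher in each, namely Cdon in Pvalb-Cadm1 (means of 18.0 and 1.47 CPM in SCA1 and WT, 38 UMIs), Hhip in Pvalb-Chrm2 (11.8 and 5.53 CPM, 41 UMIs) and Hhip in Pvalb-Rab3b (10.9 and 3.79 CPM, 36 UMIs). Of the nuclei with the last 2 labels, 38 of 263 and 0 of 458 lay in a cluster in which their label was the main one. Among gene and label pairs that passed the filter, 3.31% had every SCA1 mouse above and 2.27% every SCA1 mouse below. For pairs that failed the filter no such share was computed.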

How the results depend on the processing

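Of 396 alternative values of 29 log2 differences, 373 kept their direction and side of the threshold. Treating nuclei as the units called Ptch1 (-0.39) and Gli1 (-0.23) in BG, where nuclei of 1 mouse are counted as independent. No other alternative called any of the 9 genes. Both BG differences stayed below 0 when each mouse was left out, at -0.67 to -0.26 for Ptch1 (-0.26 without SCA1 mouse 2) and -0.85 to -0.53 for Gli1, and Shh in PC stayed above 0, at 0.49 to 0.88. DESeq2 gave no adjusted p for Shh in PC. In BG the replicate numbers were not shown to pair the mice (r of 0.04 for number 2), and with the replicate block the unadjusted edgeR p was 0.011 for Ptch1 and 0.00122 for Gli1, with adjusted p of 0.829 and 0.372. The block called 184 genes in PC, 3 in BG, 1 in VA, 13 in GN and 30 over all nuclei.

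The direction turned for the differences that follow, and the cause was not tested. On nuclei, Cdon in PC was 0.021, Gli3 0.025 in BG and 0.10 in VA, and Boc in VA 0.0027. Smo in BG was -0.000998 with DESeq2, -0.034 without the batch term and -0.058 in nuclei whose label and cluster were the same. With each mouse left out, Smo in BG ran from -0.16 to 0.22, Gli3 from -0.31 to 0.18 in BG and from -0.31 to 0.30 in VA, Gli2 in VA from -0.76 to 0.050, Boc from -0.26 to 0.055 in VA and from -0.37 to 0.0016 in GN, Ptch1 in GN from -0.26 to 0.035, the Gli1 interaction of BG with VA from -0.55 to 0.26 and the Shh interaction of PC with GN from -0.18 to 0.88. Leaving out 1 mouse also moved, without turning, Ptch1 in VA (-0.36 to -0.061) and over all nuclei (-0.30 to -0.056), Smo in VA (0.026 to 0.35), Cdon in PC (-0.38 to -0.095) and GN (0.082 to 0.41), Shh over all nuclei (0.12 to 0.53) and the Ptch1 interaction of BG with VA (-0.35 to -0.14). The difference in share of PC nuclei with a Shh UMI was -0.302 percentage points in the draw at 3000 UMIs, 2.50 as the mean over all draws (added after seeing the data), 1.87 at 1000 UMIs and 13.6 unthinned, so that its sign rests on the draw.

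Counts of genes called moved by over 1.5 times under 46 of 117 alternatives. DESeq2 called 65 in PC, 2 in BG, 15 in GN, 18 over all nuclei, and 1 and 30 for the interactions of BG and PC with GN. Without the filter the counts were 223 in PC, 15 in BG, 4 in VA, 5 in OL, 2 in GN, 12 for BG with VA and 58 for PC with GN. In PC, RLE factors gave 8 and library size only 2. In OL library size only gave 0. Without the batch term OL and GN had 0. Nuclei whose label and cluster were the same gave 1 in PC, 0 in OL and 1 for PC with GN. Nuclei as units gave 417 in PC, 370 in BG, 150 in VA and 187 in OL. Leaving out 1 mouse at a time gave counts from 0 to 6 in PC, 0 to 2 in BG, 0 to 8 in VA, 0 to 1 in OL, GN and over all nuclei, 0 to 9 for BG with VA and 0 to 4 for PC with GN. Of the other values, 34 of 34 levels and 6 of 9 shares stayed within the spread of the mice or kept direction. The Shh level in PC rests on 5 and 9 UMIs in WT mice 2 and 3.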
